A study of Mus musculus with 24 samples.

Results

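Malat1 and Neat1 are long noncoding RNAs that stay in the nucleus, and they are neighbours on mouse chromosome 19. They are 2 of the 17111 genes in a table of normalised read counts from mouse muscle stem cells (MuSCs), and they were taken by name, after their levels over the groups had already been seen. Their values in the 24 libraries, as normalised counts and as shares of each library's total, are therefore described here without a test. Tests are given only for lists of other genes.

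The libraries were made from MuSCs, the Pax7-expressing cells that repair skeletal muscle, and fall into 6 groups of 4. The genotypes are L2A-WT, called WT here, and L2A-Pax7CreER, called KO here, in which the inducible recombinase CreER, driven by the MuSC gene Pax7, targets Lamp2a, the lysosomal receptor of chaperone-mediated autophagy. Muscle was uninjured (day 0), or had received 50 µL of cardiotoxin at 10 µM, a snake toxin that destroys myofibres, 1 or 4 days earlier. The comparisons ask how MuSCs differ between days after injury, and between genotypes at a given day. There is no Cre control with normal Lamp2a among the groups, so an effect of Cre and an effect of Lamp2a loss cannot be told apart. The batch label is 1 throughout. The labels give no age of the mice and do not tie a library to an animal, so p-values measure the spread between these libraries, which may be technical.

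Malat1 collects in nuclear speckles, the bodies where splicing factors are stored, and is among the most abundant noncoding RNAs of mammalian cells. Neat1 is the scaffold of the paraspeckle, a nuclear body that forms on the long Neat1 transcript and holds RNA-binding proteins such as NONO and SFPQ. The long Neat1 transcript and Malat1 end in a way that differs from that of most messenger RNAs: RNase P cuts the primary transcript at a transfer-RNA-like structure, and the new 3′ end folds into a triple helix in place of a poly(A) tail. The short Neat1 transcript ends at an ordinary polyadenylation site.

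These endings are shown because the libraries were made with SMART-Seq v4, a kit that starts cDNA synthesis from an oligo(dT) primer. The first lines give 110 bases of Malat1-201 (bases 6582 to 6691 of 6983) and the last 110 bases of Neat1-201 (bases 20662 to 20771), from the GENCODE M21 transcripts, 5′ to 3′ with T for U. Capitals mark the U-rich stretches and the A-rich tract that take part in the triple helix, though not every marked base pairs.
Malat1-201: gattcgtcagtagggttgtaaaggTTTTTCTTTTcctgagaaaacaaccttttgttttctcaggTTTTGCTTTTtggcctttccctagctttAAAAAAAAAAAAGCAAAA
Neat1-201: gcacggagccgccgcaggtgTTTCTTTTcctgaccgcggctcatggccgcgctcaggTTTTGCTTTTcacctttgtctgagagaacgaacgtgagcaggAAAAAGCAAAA
The next line gives the last 60 bases of the short transcript Neat1-202 (3004 bases), with the polyadenylation signal AATAAA in capitals.
Neat1-202: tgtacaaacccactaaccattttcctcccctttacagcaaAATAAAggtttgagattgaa
The A-rich tract was longer in Malat1-201 than in Neat1-201, with 18 against 11 bases, while the U-rich stretch nearer to it had the same letters in both. The table holds 1 row for Neat1, so its long and short transcripts cannot be told apart. Whether the oligo(dT) primer captured these endings to the same extent as a poly(A) tail was not tested.

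Another row of the table lies within Malat1. Gm37376, a transcript of 453 bases annotated on the opposite strand, is over its whole length the reverse complement of bases 280 to 732 of Malat1-201. Its first 60 shared bases, on the Malat1 strand, show which sequence both rows count.
Malat1-201, bases 280 to 339: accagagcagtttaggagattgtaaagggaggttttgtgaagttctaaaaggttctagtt
The Gm37376 value was between 37.7% and 46.0% of the Malat1 value in all 24 libraries. By group it ran from 41.4% to 43.0% in WT and 42.4% to 44.0% in KO at day 0, from 41.5% to 46.0% and 42.3% to 45.0% at day 1, and from 38.7% to 41.8% and 37.7% to 40.8% at day 4. The shared stretch is 453 of the 6983 bases of Malat1-201. The kit does not mark strand, so reads from this stretch cannot be assigned to Malat1 or Gm37376, and the level of either row is uncertain. Adding the Gm37376 value to that of Malat1 left every group difference of Malat1 within 1 SD between libraries of the value without it. As Gm37376 was a similar part of Malat1 in every library, the sum could move these differences only a little. It does not show how reads were split between the rows.

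Total reads per library, recovered from the table, ran from 11.58 to 22.47 M. Malat1 had at least 97478 reads in a library and Neat1 at least 3726, so 95% Wilson intervals of their shares reached at most 0.628% and 3.26% of the share itself, which covers counting error only. All 10 MuSC markers were detected in every group. Their sum was 2596 to 3482 normalised counts in WT and 2979 to 3400 in KO at day 0. It was 4291 to 6357 in WT and 5428 to 7343 in KO at day 1. At day 4 the sum was lower, with 1217 to 1399 in WT and 1240 to 1402 in KO. Summed macrophage markers were between 9.47 and 114 normalised counts in libraries of days 0 and 1, and between 1381 and 2151 at day 4. Summed mature myofibre markers were 82.4 to 114 in WT and 92.9 to 227 in KO at day 0. At day 4 they were 921 to 1305 in WT and 572 to 994 in KO. Summed endothelial markers were 144.5 to 271 in WT and 88.4 to 180 in KO at day 0. At day 1 they were 23.8 to 40.5 and 16.2 to 22.9. Sums for other cell types at these days are given below, and not all of them were lower at day 1. The part of these marker changes in the day differences of Malat1 and Neat1 was not tested. Lamp2, measured over all its splice forms, was 676 ± 151 in WT and 582 ± 36.0 in KO at day 0 (SD, n = 4), and this value cannot show loss of the Lamp2a form.

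In uninjured WT cells Malat1 had 115326, 77215, 64528 and 86562 normalised counts, and it was the most abundant of all 17111 rows in each library. In uninjured KO cells it had 65534, 69709, 55652 and 65401, again in first place in each library. The WT and KO libraries overlapped, with 3 WT libraries above every KO library and 1 WT library within the KO range. The KO minus WT difference was -0.40 on the log2 scale (SE 0.19), and without 1 library it lay between -0.52 and -0.24.

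At day 1 Malat1 had 7210, 6184, 4570 and 6070 normalised counts in WT. The KO libraries of day 1 had 10821, 9591, 8716 and 10184. All 8 libraries were below every uninjured library, and every KO library was above every WT library. In KO its rank was 2 or 3, and in WT it lay between 1 and 5. Malat1 thus stayed among the most abundant rows at its lowest level.

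At day 4 Malat1 had 16789, 14181, 14160 and 13640 normalised counts in WT. In KO it had 24492, 20950, 25155 and 23244. The groups of day 4 did not overlap with each other, and all their libraries lay between those of day 1 and those of day 0. Its rank was 8 in each WT library and 9 to 11 in KO.

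Within WT, Malat1 was 14.2-fold lower at day 1 than at day 0, a log2 difference of -3.82 (SE 0.22). It was 2.47-fold higher at day 4 than at day 1, and at day 4 it was still 5.73-fold below day 0. Within KO, it was 6.52-fold lower at day 1 than at day 0, with a log2 difference of -2.70 (SE 0.10). It was 2.39-fold higher at day 4 than at day 1 and 2.73-fold below day 0. The change from day 0 to day 1 in KO minus that in WT was 1.12 on the log2 scale (SE 0.24), and the same difference from day 1 to day 4 was -0.05 (SE 0.18). The first of these was 0.71 with Malat1 as a share of all reads, and -0.18 under quantile normalisation, so its sign was not the same under every scaling. Between genotypes, KO was 1.65-fold above WT at day 1 and 1.60-fold above at day 4, with log2 differences of 0.72 (SE 0.15) and 0.68 (SE 0.09). In bulk RNA, fewer cells of a type and less RNA per cell cannot be told apart.

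In uninjured WT cells Neat1 had 4719, 4024, 4487 and 4856 normalised counts. In uninjured KO cells it had 2855, 3693, 2551 and 2256. Every WT library was above every KO library. Its rank was 13 to 19 in WT and 15 to 37 in KO. In the same uninjured libraries the summed markers of fibro-adipogenic progenitors, stromal cells of muscle, were 883 to 1248 normalised counts in WT, where 1 of 12 markers had 0 counts, and 2085 to 2585 in KO. Summed smooth muscle and pericyte markers were 281 to 371 in WT and 425 to 861 in KO, and glial markers were 390 to 457 in WT and 173 to 356 in KO. The part of these cells in the genotype difference was not tested.

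At day 1 Neat1 had 155, 209, 194 and 196 normalised counts in WT. The KO libraries had 439, 467, 489 and 456. Both groups were far below the uninjured cells, and here every KO library was above every WT library, the reverse of the order at day 0. Its rank was 830 to 1173 in WT and 372 to 447 in KO. At day 1 the summed fibro-adipogenic markers were 1179 to 1676 in WT and 1832 to 2549 in KO, while smooth muscle and pericyte markers were 252 to 331 in WT and 365 to 472 in KO. Glial markers were 175 to 229 in WT and 136 to 167 in KO, and endothelial markers 23.8 to 40.5 in WT and 16.2 to 22.9 in KO. Pax7 was 85.2 ± 10.1 in WT and 32.0 ± 3.70 in KO (SD, n = 4), but the MuSC markers did not all go this way. Of the 10, 4 were higher and 4 lower in KO (limma, adjusted p under 0.05), against 19.1% and 16.4% of all tested genes. Their sum was 4291 to 6357 in WT and 5428 to 7343 in KO. The part of all these in the Neat1 values was not tested either.

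At day 4 Neat1 had 2269, 2350, 2569 and 2598 normalised counts in WT. In KO it had 3078, 2926, 3145 and 2840. Every KO library was again above every WT library. At day 4 the summed markers of macrophages and monocytes were 1617 to 2151 in WT and 1381 to 1537 in KO, and their part in the day 4 differences of Malat1 and Neat1 was not tested. Its rank was 19 or 20 in all 8 libraries.

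Within WT, Neat1 was 23.97-fold lower at day 1 than at day 0, with a log2 difference of -4.58 (SE 0.11). It was 12.98-fold higher at day 4 than at day 1 and 1.85-fold below day 0, a log2 difference of -0.88. That difference from day 0 to day 4 was -0.51 as a share of all reads, -0.40 under quantile normalisation and -0.12 as a share of the reads outside the mitochondrially encoded rows. Within KO, it was 6.03-fold lower at day 1 than at day 0 (log2 -2.59, SE 0.15) and 6.47-fold higher at day 4 than at day 1. The KO libraries of days 0 and 4 overlapped, with a log2 difference of 0.10 (SE 0.16). The change from day 0 to day 1 in KO minus that in WT was 1.99 on the log2 scale (SE 0.19). It was 1.59 as a share of all reads and 1.60 under quantile normalisation. KO minus WT was -0.69 at day 0 (SE 0.16), 1.30 at day 1 (SE 0.10) and 0.29 at day 4 (SE 0.06), that is 1.62-fold lower, 2.46-fold higher and 1.23-fold higher in KO. The comparisons of days within a genotype share the libraries of the day in common, as do the comparisons of genotypes with those of days.

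**Figure D1:**
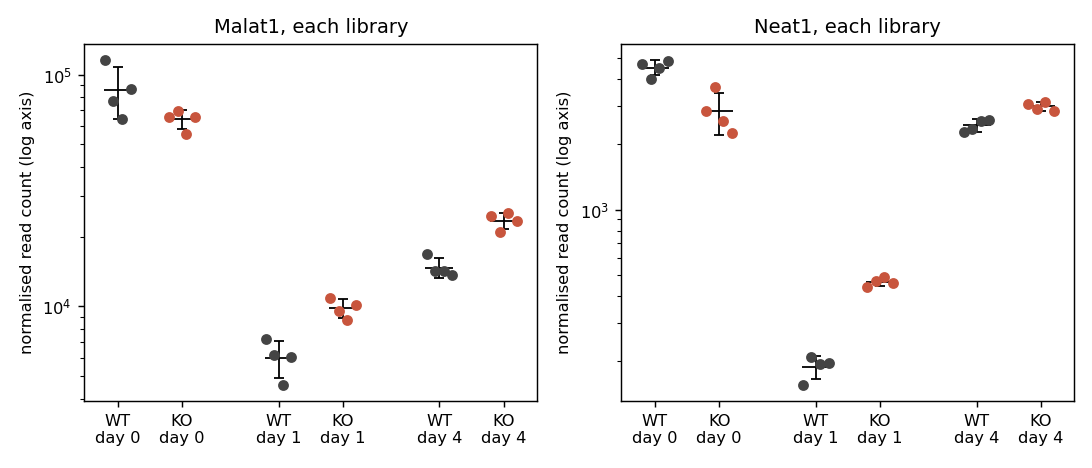
Normalised read counts of Malat1 (left) and Neat1 (right) on log axes, with 1 point per library, and the mean and SD of the 4 libraries of each group in black. Malat1 ran from 4570 at day 1 to 115326 at day 0, and Neat1 from 155 at day 1 to 4856 at day 0; on this scale KO points lie above WT at days 1 and 4 for both genes, which does not hold under every other scaling.

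In the order of group means, Malat1 was highest in WT at day 0, followed by KO at day 0, KO at day 4, WT at day 4, KO at day 1 and WT at day 1. The only neighbours in this order whose libraries overlapped were the groups of day 0. Neat1 was highest in WT at day 0, followed by KO at day 4, KO at day 0, WT at day 4, KO at day 1 and WT at day 1. Its KO libraries of days 4 and 0 overlapped, as did those of KO at day 0 and WT at day 4.

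Libraries that do not overlap were common among all genes. Of the tested genes, the share with all day 1 libraries below those of day 0 was 25.5% in WT and 20.6% in KO, and with all day 4 libraries above those of day 1 it was 33.8% in WT and 25.2% in KO. With all day 4 libraries below those of day 0 it was 19.8% in WT and 16.6% in KO. For the genotypes, 4.73% of tested genes had all KO libraries below WT at day 0, 18% had them above at day 1, and 4.21% had them above at day 4. The 2 genes were chosen from these same comparisons, so nothing is read from these shares.

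Of all normalised reads, Malat1 made up 11.1%, 7.04%, 6.14% and 8.06% in the WT libraries of day 0. It was 6.55%, 7.34%, 5.97% and 6.18% in KO. At day 1 its share was between 0.524% and 0.786% in WT and between 0.818% and 0.963% in KO, and no libraries of the genotypes overlapped. At day 4 the share was between 1.65% and 2.003% in WT and between 1.81% and 2.12% in KO, and here the genotypes overlapped although the normalised counts did not. Together with Gm37376, Malat1 took up to 15.8% of the reads of a library.

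The share of Neat1 was between 0.367% and 0.455% in WT at day 0 and between 0.213% and 0.389% in KO, so as a share the groups overlapped. At day 1 it was between 0.0169% and 0.0234% in WT and between 0.0391% and 0.0459% in KO. At day 4 it was between 0.271% and 0.332% in WT and between 0.229% and 0.265% in KO. At day 4 Neat1 was thus lower in every KO library as a share of reads, and higher in every KO library as a normalised count.

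The share of reads from the 15 mitochondrially encoded rows was higher in every KO library at days 1 and 4, and its part in this reversal was not tested. This mitochondrial share was 28.0% to 31.4% in WT and 43.1% to 47.9% in KO at day 4. It was 7.0% to 9.3% in WT and 7.3% to 13.3% in KO at day 0, and 2.2% to 3.7% and 3.8% to 6.1% at day 1. When the share was taken of the reads outside these rows, Neat1 at day 4 was 0.392% to 0.462% in WT and 0.439% to 0.468% in KO, with overlap and a log2 difference of 0.08. Malat1 by the same measure was 2.38% to 2.90% in WT and 3.21% to 3.74% in KO, with no overlap and a log2 difference of 0.46. The sign of the Neat1 genotype difference at day 4 depended on the denominator, and that of Malat1 was positive by each share.

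**Figure D2:**
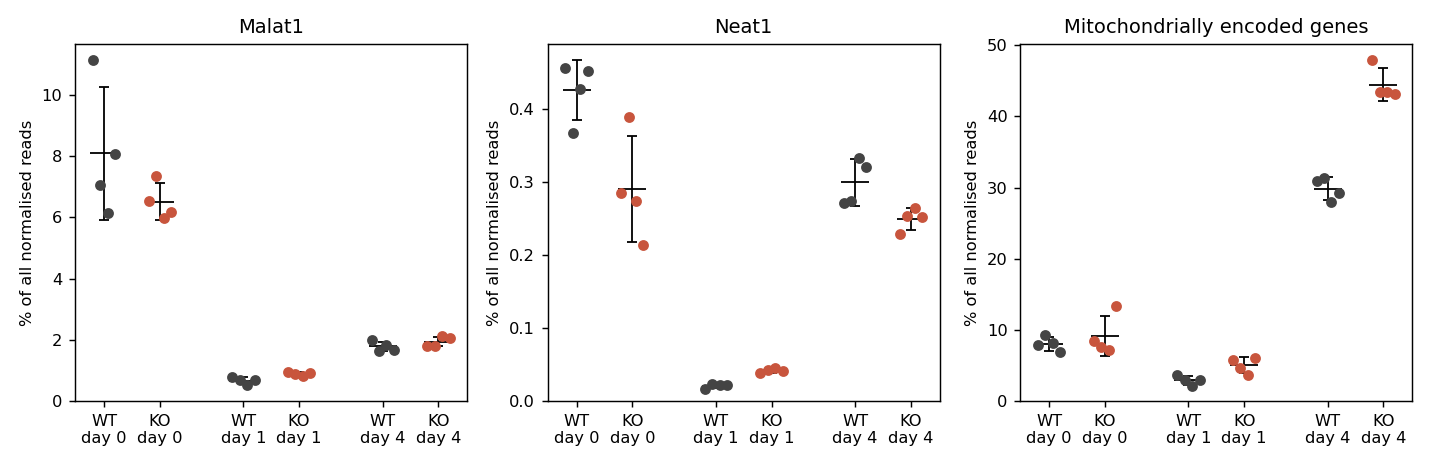
Share of all normalised reads, in percent, taken by Malat1 (left), Neat1 (middle) and the mitochondrially encoded rows (right), with 1 point per library, and mean and SD in black. At day 4 the mitochondrial share is higher in all 4 KO libraries (43.1% to 47.9%) than in WT (28.0% to 31.4%), and the Neat1 share is lower (0.229% to 0.265% against 0.271% to 0.332%).

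Other scalings were set beside these values because Malat1 is such a large part of the libraries. With DESeq2 size factors on the recovered counts, KO minus WT kept its sign for both genes at every day. Quantile normalisation gave Malat1 differences of 0.00, -0.18 and -0.26 at days 0, 1 and 4, and Neat1 a difference of -0.08 at day 4. It assigns by rank the same set of values to every library, so a gene at ranks 1 to 11 takes a value set by its rank. Under it Malat1 was also lower at day 4 than at day 1, by -1.22 in WT and -1.31 in KO. The lower level of both genes at day 1 than at day 0, and the higher Neat1 level of KO at day 1, had the same sign under every scaling tried.

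**Figure D3:**
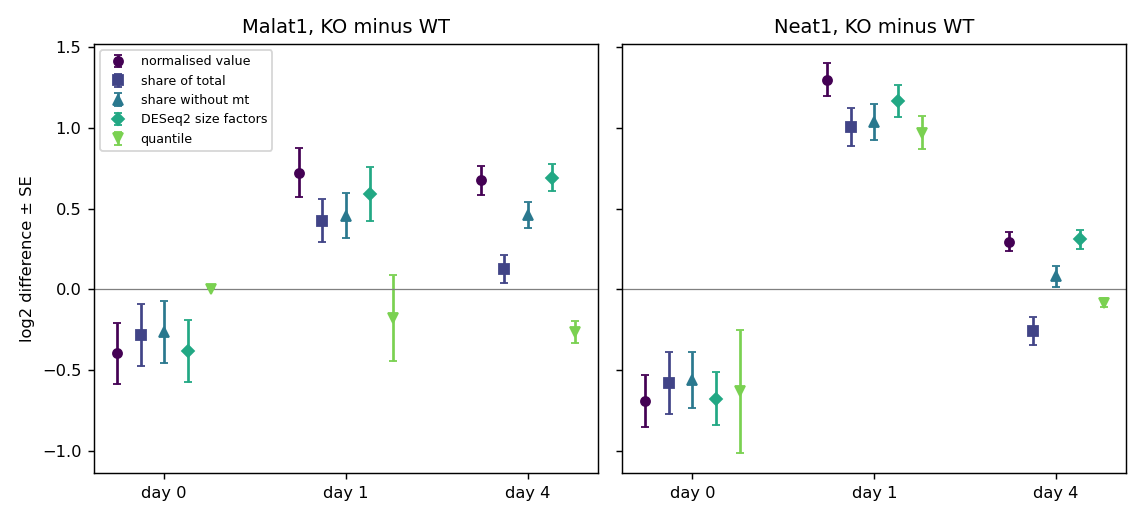
KO minus WT on the log2 scale (± SE, 4 libraries per group) for Malat1 (left) and Neat1 (right) at each day, under the normalised values and 4 other scalings; mt stands for the mitochondrially encoded rows. For Neat1 the points of day 0 are below 0 and those of day 1 are above 0 for each scaling, and those of day 4 run from -0.26 to a little over 0.29.

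A ratio of the genes within a library does not change when all values of the library are multiplied by the same factor. The Malat1 value was 24.4, 19.2, 14.4 and 17.8 times the Neat1 value in WT at day 0, and 22.95, 18.9, 21.8 and 28.99 times in KO. At day 1 it was 46.6, 29.5, 23.6 and 31.04 times in WT and 24.6, 20.6, 17.8 and 22.3 times in KO. At day 4 it was 7.40, 6.03, 5.51 and 5.25 times in WT and 7.96, 7.16, 7.998 and 8.18 times in KO. All 8 ratios of day 4 were below all 16 of the earlier days, and this holds under any scaling by 1 factor per library. Quantile normalisation is not of this kind, and the ratio was not taken under it. The genotypes overlapped in this ratio at each day.

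Levels of the 2 genes can be compared only per length. Per kilobase, Malat1 had a mean of 12302 normalised counts in WT at day 0, over the length of Malat1-201. Neat1 had a mean of 218 over the length of Neat1-201, or 1505 over that of Neat1-202. At day 4 in WT the means were 2104 for Malat1 and 118 or 814 for Neat1. Malat1 was the higher per length in both cases, whichever Neat1 length was used.

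**Figure D4:**
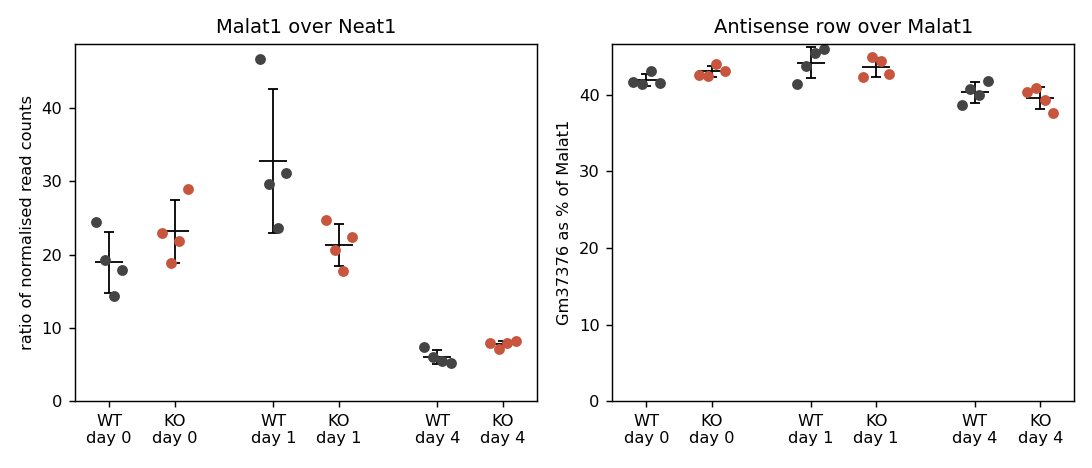
Left, the ratio of Malat1 to Neat1 normalised counts; right, the Gm37376 value as a percentage of the Malat1 value; 1 point per library, with mean and SD in black. The ratio is between 5.25 and 8.18 at day 4 and between 14.4 and 46.6 before, while the antisense row stays between 37.7% and 46.0% of Malat1.

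Among the 1671 rows of long noncoding RNA types, Malat1 alone held 71.2% to 79.4% of the signal in WT at day 0 and 72.4% to 75.5% in KO. At day 1 it held 39.7% to 48.8% in WT and 48.0% to 51.2% in KO. At day 4 it held 49.7% to 54.4% in WT and 56.3% to 59.8% in KO. Neat1 held 1.05% to 1.68% of that signal in WT at day 1 and 7.35% to 9.47% at day 4. In uninjured WT cells Neat1 held 3.25% to 4.95% of it. At day 4 in WT, then, Neat1 made up a larger part of the long noncoding signal than in uninjured WT cells, and Malat1 a smaller part.

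The list of other nuclear long noncoding RNAs was lower at day 1 as well. Of its 16 tested members in WT, 12 fell from day 0 to day 1 (limma, adjusted p under 0.05), and 4 did not pass the test. The number that rose was 0 by limma, and 0 also at an unadjusted p under 0.05 and by edgeR and DESeq2. Of all tested genes, 27.5% fell and 34.2% rose. The median change of the list was -2.77 on the log2 scale, and that of all tested genes 0.26. In KO, 11 of 17 fell and 6 did not pass, with a median of -1.96, while 22.3% of all tested genes fell and 28.8% rose, with a median of 0.20. Meg3, Kcnq1ot1 and Lncpint are part of this list.

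Meg3, a maternally expressed RNA of the imprinted Dlk1-Dio3 region, fell by 4.57 in WT (SE 0.15, adjusted p = 1.18e-07, limma) and by 4.01 in KO (SE 0.17, adjusted p = 1.32e-07, limma). Kcnq1ot1, the antisense RNA that silences neighbouring imprinted genes on the paternal chromosome, had 1804 ± 215 normalised counts in WT at day 0 and 86.0 ± 16.9 at day 1 (SD, n = 4). It fell by 4.39 in WT and by 3.40 in KO on the log2 scale. Mirg, another RNA of the Dlk1-Dio3 region, fell by 4.38 in WT and by 3.79 in KO. From day 1 to day 4, 9 of 17 members rose and 2 fell in WT, against 38.1% and 36.9% of all tested genes. In KO 11 of 16 rose and 3 fell, against 29.4% and 32.4%. Kcnq1ot1 rose by 2.51 in WT and by 2.49 in KO, and Firre, an X-linked RNA that organises chromatin, by 2.20 and 3.38.

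Nuclear speckle genes, which encode the proteins Malat1 lies among, were mostly lower at day 1. In WT 22 of 30 fell and 1 rose, with a median change of -1.27, and in KO 18 of 30 fell and 4 rose, with a median of -0.77. Of all tested genes 27.5% fell and 34.2% rose in WT, and 22.3% fell and 28.8% rose in KO. Clk1, a kinase of SR splicing factors, fell by 2.58 in WT (adjusted p = 1.15e-06, limma) and by 2.09 in KO (adjusted p = 1.29e-06, limma). Son, a scaffold protein of the speckle, had 1457 normalised counts in WT at day 0 and 291 at day 1, and fell by 2.32. Ddx39b, an RNA helicase of splicing and export, rose by 1.99 in WT and by 2.17 in KO. From day 1 to day 4 the list was split, with 11 higher and 13 lower in WT and 11 higher and 11 lower in KO. The shares of all tested genes were 38.1% higher and 36.9% lower in WT and 29.4% and 32.4% in KO. Under quantile normalisation the list had 18 higher and 6 lower in WT and 17 higher and 3 lower in KO.

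Paraspeckle protein genes went in both directions at day 1. In WT 12 of 35 rose and 13 fell, with a median change of -0.29, and in KO 12 rose and 11 fell, with a median of 0.13. Of all tested genes 34.2% rose and 27.5% fell in WT, and 28.8% rose and 22.3% fell in KO, so the risen share of the list in WT (34.3%) was near that of all genes. Of the core proteins, named here for their role with their values already seen, Nono rose by 1.39 in WT and 1.15 in KO, while Sfpq, its usual partner, fell by 1.80 and 0.72. Rbm14, needed for paraspeckle assembly in human cells, rose by 2.04 in WT and 1.65 in KO. Cirbp, a cold-inducible RNA-binding protein, had 4.71 normalised counts in WT at day 0 and 39.4 at day 1, and rose by 2.84. From day 1 to day 4, 7 rose and 21 fell in WT and 6 rose and 17 fell in KO, and under quantile normalisation 12 rose and 11 fell in WT and 13 rose and 8 fell in KO. Of all tested genes 38.1% rose and 36.9% fell in WT from day 1 to day 4, and 29.4% and 32.4% in KO. Hnrnpk, which in human cells acts on the choice between the Neat1 transcripts, fell by 2.62 in WT and by 2.52 in KO.

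The list of genes tied to the 3′ ends of Malat1 and the long Neat1 transcript was mostly higher at day 1. It includes subunits of RNase P, Elac2 and Mettl16, and not every member makes these ends. In WT 11 of 13 rose and 2 did not pass, with a median change of 2.59, and in KO 12 of 13 rose and 1 did not pass, with a median of 2.44. The risen share of all tested genes was 34.2% in WT and 28.8% in KO. Elac2, the enzyme that trims transfer RNA 3′ ends, had 3.79 normalised counts in WT at day 0 and 67.5 at day 1, and rose by 4.08 (SE 0.56, adjusted p = 1.54e-04, limma). Pop7 and Rpp14, subunits of RNase P, rose by 4.05 and 3.96 in WT and by 3.49 and 4.21 in KO. Mettl16, a methyltransferase that binds the human MALAT1 triple helix, rose by 3.42 in WT. From day 1 to day 4, 14 of 14 fell in WT and 12 of 13 in KO, against 36.9% and 32.4% of all tested genes. These genes have low counts at day 0, so their fold changes depend on the pseudocount of 1.

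**Figure D5:**
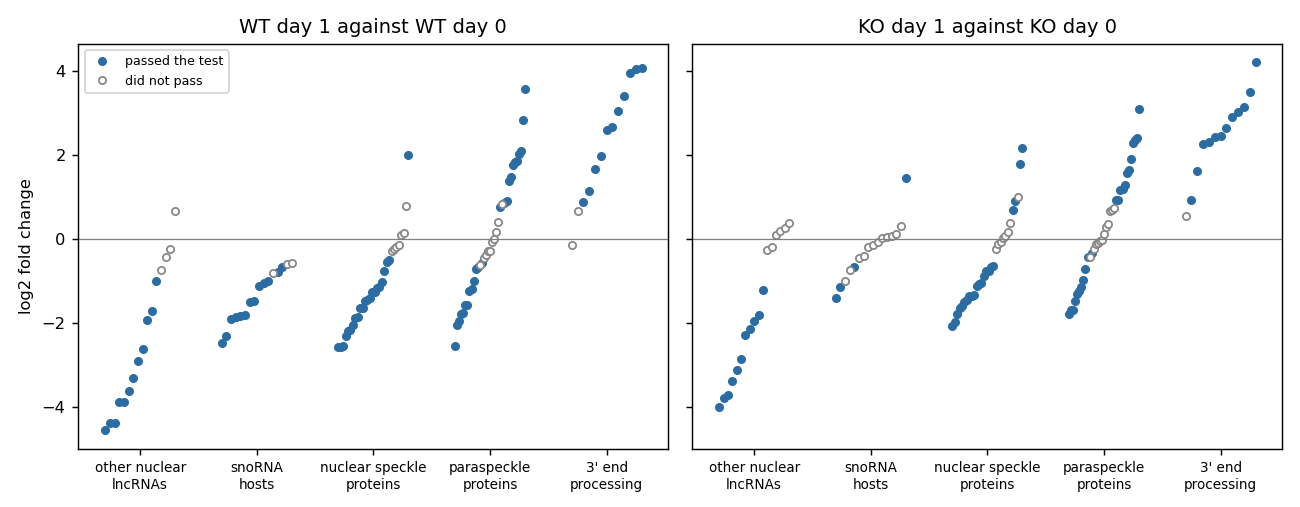
Log2 fold changes from day 0 to day 1 for the tested members of 5 lists in WT (left) and KO (right), 1 point per gene in order of size, filled where the gene passed the test (limma, adjusted p under 0.05). In both panels the other nuclear noncoding RNAs reach below -4 and the filled points of the 3′ end list are all above 0.

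SnoRNA host genes, whose introns carry small nucleolar RNAs, fell in 13 of 16 cases in WT at day 1 and in 3 of 16 in KO, where 1 rose. The fallen share of all tested genes was 27.5% in WT and 22.3% in KO, so the KO count was near that of all genes. Gas5 had 2763 normalised counts in WT at day 0 and 555 at day 1, and fell by 2.32 in WT and by 1.16 in KO. Under quantile normalisation 7 fell in KO. Of the genes near Malat1 and Neat1 on chromosome 19, 3 of 11 rose and 2 fell in WT at day 1, with 1 higher by edgeR, and 4 of 11 rose in KO, with 2 by edgeR. Of all tested genes 34.2% rose and 27.5% fell in WT and 28.8% rose in KO, and the list had 27.3% risen and 18.2% fallen in WT and 36.4% risen in KO. Frmd8 rose by 2.33 in KO.

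Between genotypes at day 0, calls in the lists were few, as they were over all genes, where 0.742% were higher in KO and 0.75% lower. Kcnq1ot1 was lower in KO, by -0.63 on the log2 scale (SE 0.13, adjusted p = 0.0319, limma), as was Rbm3, a cold-inducible RNA-binding protein, by -1.16 (adjusted p = 0.0254, limma). Ftx, an X-linked noncoding RNA, was lower by -3.04, with 20.5 normalised counts in WT and 1.86 in KO. In the nuclear speckle list 2 of 30 were lower and in the snoRNA host list 1. By edgeR 0 were called in the other noncoding, speckle and snoRNA host lists, and by DESeq2 4 were lower in each. At an unadjusted p under 0.05, 8, 9 and 8 members of these lists were lower.

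At day 1, 19.1% of all tested genes were higher in KO and 16.4% lower. Of the other nuclear noncoding RNAs 5 of 16 were higher and 2 lower in KO, and of the nuclear speckle genes 10 of 30 were higher and 1 lower. Under quantile normalisation 6 of the speckle genes were higher and 5 lower. Of the snoRNA host genes 10 of 16 were higher and 6 did not pass. Of the paraspeckle genes 7 of 35 were higher and 3 lower, and under quantile normalisation 3 were higher and 12 lower. Lncpint, an RNA induced by p53, was higher by 0.97 (SE 0.20, adjusted p = 0.00233, limma), with 12.7 normalised counts in WT and 25.7 in KO. Snhg20 was higher by 1.41 and Srrm2, a speckle scaffold protein, by 0.82. Sfpq was higher by 0.91, and Cirbp lower by -1.70. Of the chromosome 19 neighbours 7 of 11 were higher, with Ehbp1l1 higher by 1.84, and 3 were higher with all 24 libraries in the fit. Of the mitochondrially encoded genes 11 of 13 were higher. Summed mature myofibre markers, measured in the same libraries, were 264 to 367 in WT and 55.1 to 105 in KO at day 1, and their part in these differences was not tested.

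At day 4, 0.62% of tested genes were higher in KO and 0.405% lower. All 13 mitochondrially encoded genes were higher in KO by limma, such as mt-Co1, with a difference of 1.25 (SE 0.10, adjusted p = 1.18e-05, limma), and under quantile normalisation 2 were. Pnn, a speckle protein, was higher by 0.59, and H19, an imprinted noncoding RNA, was lower by -1.26. In the paraspeckle list 0 of 35 passed by limma, edgeR and DESeq2, and 4 were higher at an unadjusted p under 0.05. In the snoRNA host list 0 of 16 passed by limma and edgeR and 2 by DESeq2, with 3 higher and 2 lower at an unadjusted p under 0.05. In the 3′ end and chromosome 19 lists 0 of 13 passed by limma, edgeR, DESeq2 or an unadjusted p under 0.05.

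Profiles most like each gene were sought over the 24 libraries among 8348 genes, by the root mean square difference of log2 values after each gene's own mean was removed. For Malat1 the nearest row was its antisense row Gm37376, at 0.07, which is left out with other genes of predicted names. Of the rest, Lncpint was nearest, at 0.31, followed by Trim6, Syne2, Dleu2, Baz2b, Brwd1, Spag9 and Dnm3os, at up to 0.45. The median over all genes compared was 1.76. Lncpint had means of 203 and 117 normalised counts in WT and KO at day 0, 12.7 and 25.7 at day 1, and 25.1 and 41.0 at day 4. Neat1 stood only 515th in likeness to Malat1, at 0.90.

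For Neat1 the nearest gene was Bmp1, a secreted protease of the extracellular matrix, at 0.40, with a median of 2.07 over all genes. Bmp1 had means of 215 and 146 normalised counts in WT and KO at day 0, 16.4 and 23.7 at day 1, and 125 and 123 at day 4. Next came Vmn2r120, Kcnq1ot1, Olfr46, Pqlc3, Olfr1336, Ddhd1 and Vmn2r115, at 0.53 to 0.60. Malat1 stood 119th. Vmn2r120, Vmn2r115, Olfr46 and Olfr1336 are vomeronasal and olfactory receptor genes, which are known from the nose.

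Because of these names, the 165 rows of olfactory and vomeronasal receptors were summed, a choice made after the values were seen. Their share of all normalised reads was 0.0771% to 0.107% in WT and 0.0810% to 0.124% in KO at day 0. It was 0.0120% to 0.0153% and 0.0117% to 0.0146% at day 1, and 0.0726% to 0.0810% and 0.0557% to 0.0725% at day 4. This sum was low at day 1 and high at days 0 and 4, as Neat1 was, and its part in the Neat1 result was not tested. At day 0 the shares of both this sum and Neat1 overlapped between WT and KO. At day 1 the ranges of the sum overlapped, and those of Neat1 did not. At day 4 both shares were lower in every KO library than in every WT library.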

How the data were processed

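The deposited table holds 1 linear normalised signal per gene and library, which the authors made with FastQC, STAR, RSEM and limma on mm39, per the submitters' processing notes; versions and the use of strand are not given in the sources used here. Each value equalled a whole count plus 0.5 over a scaled library size, so that the counts could be recovered (100% whole to within 0.02). Genes of at least 1 in at least 4 of the 8 libraries compared were tested on log2(value + 1) with limma 3.58.1 in R 4.3.3 (mean-variance trend, two-sided, Benjamini-Hochberg, threshold 0.05), fitted to the 2 groups compared. edgeR 4.0.16 and DESeq2 1.42.0 were run on the recovered counts as alternatives, with other filters, pseudocounts and scalings. Differences of Malat1 and Neat1 are means of log2(value + 1) with SE over 4 libraries a group, and folds are powers of 2 of them. Transcripts and gene types came from GENCODE M21 on GRCm38, another build than mm39, so no genome coordinates are given. The genes and lists were chosen with earlier results of these data known. Named list genes were up to 4 per list and comparison with the largest changes among those past the test, with a mean of at least 8 in a group; the text gives some of these. Nono, Sfpq, Rbm14 and others outside that rule in a comparison were named with values seen. For likeness the 8 nearest genes with a mean of at least 8 were taken, and genes of predicted names (Gm numbers and Rik names) were left out. Markers were fixed lists. Wilson intervals use a 95% level, and as the reads carry no molecular identifiers, they cover counting error only.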

Additional observations from a re-analysis of the deposited data

Results flagged for a closer look

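The genotype difference of Neat1 had opposite signs at different days. KO minus WT was -0.69 on the log2 scale at day 0, with all 4 KO libraries below all 4 WT libraries. It was 1.30 at day 1 and 0.29 at day 4, and at these days no WT library reached any KO library. The difference between days was not tested, because Neat1 was chosen for its pattern over these groups. As a share of all reads the libraries of day 0 overlapped, and those of day 4 had the opposite order. In the 30 sets of 4 libraries checked, 0 had a library far from the other 3; chance gives such a library in about 5% of sets.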

How the results depend on the processing

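Among the log2 differences of Malat1 and Neat1, those below moved by more than 1 SD between libraries. Under quantile normalisation, Malat1 was -0.60 for WT day 1 minus day 0, -1.22 for WT day 4 minus day 1, -1.82 for WT day 4 minus day 0, -0.77 for KO day 1 minus day 0, -1.31 for KO day 4 minus day 1, -2.08 for KO day 4 minus day 0, 0.00 for KO minus WT at day 0, -0.18 for KO minus WT at day 1 and -0.26 for KO minus WT at day 4. Under quantile normalisation, Neat1 was -4.80 for WT day 1 minus day 0, 4.40 for WT day 4 minus day 1, -0.40 for WT day 4 minus day 0, -3.20 for KO day 1 minus day 0, 3.34 for KO day 4 minus day 1, 0.97 for KO minus WT at day 1 and -0.082 for KO minus WT at day 4. As a share of all reads, Malat1 was -2.14 for WT day 4 minus day 0, -2.86 for KO day 1 minus day 0, 1.12 for KO day 4 minus day 1, -1.73 for KO day 4 minus day 0, 0.43 for KO minus WT at day 1 and 0.12 for KO minus WT at day 4. On the same scale, Neat1 was -4.33 for WT day 1 minus day 0, -0.51 for WT day 4 minus day 0, 2.56 for KO day 4 minus day 1, -0.18 for KO day 4 minus day 0, 1.01 for KO minus WT at day 1 and -0.26 for KO minus WT at day 4. As a share of reads outside the mitochondrially encoded rows, Malat1 was 1.89 for WT day 4 minus day 1, -1.75 for WT day 4 minus day 0, -2.92 for KO day 1 minus day 0, 1.90 for KO day 4 minus day 1, -1.03 for KO day 4 minus day 0, 0.46 for KO minus WT at day 1 and 0.46 for KO minus WT at day 4. On the same scale, Neat1 was -4.41 for WT day 1 minus day 0, 4.29 for WT day 4 minus day 1, -0.12 for WT day 4 minus day 0, -2.81 for KO day 1 minus day 0, 3.33 for KO day 4 minus day 1, 0.52 for KO day 4 minus day 0, 1.04 for KO minus WT at day 1 and 0.080 for KO minus WT at day 4. With DESeq2 size factors, Malat1 was 1.49 for KO day 4 minus day 1 and -1.31 for KO day 4 minus day 0. With DESeq2 size factors, Neat1 was -0.75 for WT day 4 minus day 0 and 2.92 for KO day 4 minus day 1. As a share of reads outside Malat1, Gm37376 and the mitochondrially encoded rows, a choice made after seeing the data, Malat1 was 1.93 for WT day 4 minus day 1, -1.89 for WT day 4 minus day 0, -3.06 for KO day 1 minus day 0, 1.95 for KO day 4 minus day 1, -1.11 for KO day 4 minus day 0, 0.46 for KO minus WT at day 1 and 0.48 for KO minus WT at day 4. On the same scale, Neat1 was 4.33 for WT day 4 minus day 1, -0.26 for WT day 4 minus day 0, -2.95 for KO day 1 minus day 0, 3.39 for KO day 4 minus day 1, 0.44 for KO day 4 minus day 0, 1.04 for KO minus WT at day 1 and 0.10 for KO minus WT at day 4. TMM, other pseudocounts and leaving out each library moved none of them by that much, and without 1 library Neat1 in KO at day 4 minus day 0 lay between -0.00 and 0.24. The cause of the moves was not tested.

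The count of genes called between KO and WT at day 0 was 189, and it was 1702 with all 24 libraries in the fit, 69 without a filter, 105 with edgeR, 525 with DESeq2 and 67 to 110 when 1 library was left out. At day 1 it was 4400, and 1650 with all 24 libraries. At day 4 it was 152, 393 with DESeq2, and 74 to 158 when 1 library was left out. With the replicate number as a block, 47 genes were called at day 0, and no other count moved by over 1.5 times. Correlations of the deviations of same-numbered libraries ran from -0.02 to 0.27, with 1 pair over 0.1 in all. In no comparison did all 4 correlate best with their own number, and 3 of 4 did for WT day 1 against day 0. A pairing by number was thus not shown, and this check cannot exclude it. Single calls in the lists at day 0 and day 4, and list counts at day 1, depend on these choices. With all 24 libraries in the fit 8 snoRNA host genes and 8 nuclear speckle genes were lower in KO at day 0, and 6 of each were higher at day 1. In that fit 3 chromosome 19 neighbours and 2 paraspeckle genes were higher in KO at day 1.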
